A study of Mus musculus with 6 samples.

Results

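Peak intervals that lay in introns were examined in RNA recovered with Ago2. An intronic interval was a merged peak interval that overlapped the body of a gene of GENCODE M21 on mm10 (GRCm38) and no exon of any annotated gene. Peaks of 5 libraries were merged where they overlapped or touched, which gave 41363 intervals. Of these, 1584 (3.83%, 95% Wilson interval 3.65 to 4.02) were intronic, 38946 overlapped an exon and 833 lay outside gene bodies. The intronic intervals fell in 1187 host genes, where a host gene is any gene whose body holds the interval.

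The libraries came from MSC myocytes, which are primary mouse satellite cells induced to differentiate in culture. Myocytes kept for 30 h in differentiation medium (DM) received 10 nM of either duplex RNA, miR-222 or siGFP, according to the sample labels, and stayed in DM for 16 h more. Ago2 was then immunoprecipitated (RISC-IP), so a control-IP is an Ago2 precipitate of siGFP myocytes and a miR-222-IP that of miR-222 myocytes. Libraries are named by condition and replicate number: control-IP 1, control-IP 2 and miR-222-IP 1 made up experiment 1, and control-IP 4 and miR-222-IP 2 experiment 2. All groups thus carried a transfected duplex, no untransfected or input library was analysed here, and strain, age and sex of the mice are not given in the sources used here. Control-IP 3 of experiment 2 was left out, because its peaks had a median width of 32103 bp against 362 to 411 bp in the other 5 libraries. Each experiment had 1 miR-222-IP, so a difference between conditions has no replicate check within an experiment, and the labels do not say whether control-IPs 1 and 2 were separate cultures.

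As background, Ago2 is the slicer Argonaute protein at the core of the RNA-induced silencing complex. It carries a miRNA, and the miRNA's seed (bases 2 to 8) pairs with sites that lie mostly in mature mRNA. Introns are removed in the nucleus before most mRNA reaches the cytoplasm. Introns also hold processed pseudogenes, which are spliced copies of mRNAs inserted into the genome by reverse transcription, and fragments of mitochondrial DNA. A read from the source RNA can align to such a copy as well as to its own gene.

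The peak lists held 10579 to 37762 peaks per library, each with a −log10 p above 20 as the authors filtered them, and no strand and no read count. The value given for an interval is the −log10 p of its highest peak in a library. It measures how far the reads exceeded a local background, and it grows with sequencing depth, which the peak lists do not give. The cell type label was checked on exonic peaks. Of 12 myogenic markers, 9 to 12 had a peak in each library, with summed values of 314 to 514 in 4 libraries and 1660 in miR-222-IP 2, and Myog had a peak only in that library, at 75.7. Cd68, a macrophage marker, had a peak of 114 to 139 in all 5 libraries, Ptprc had one in 4 of them, and neither adipocyte marker had any. Of 4 fibroblast markers 0 to 2 had a peak in each library, of 3 endothelial markers 1 to 2, and of 2 proliferation markers 1 to 2. All 10 genes of a macrophage list that was chosen after its values were seen had an exonic peak in every library, with sums of 1723 to 1869. None of the 12 myogenic markers hosted an intronic interval. Of the 10 macrophage genes, Spi1, a transcription factor of myeloid cells, and Cx3cr1, a chemokine receptor, each held 1 interval seen in 1 library. The background for genes with an exonic interval was 6.97%, and no difference between these lists was tested. What part these cells had in the intronic peaks was not tested.

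The sequences that recurred among the intronic intervals are shown first. They bear mainly on intervals with a peak in all 5 libraries. By the measure given below, 81.9% of those had a copy elsewhere in the genome, against 19.6% of all intronic intervals. The largest family whose members all had a peak in all 5 libraries was one of 9 intervals on 9 chromosomes that shared a stretch of sequence. The same 80 bases of each are printed 5′ to 3′ from GRCm38.p6 on the strand given. Capitals mark bases that differ from the first line.

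Cmss1 and Filip1l, chr16:57391311-57391390 (+): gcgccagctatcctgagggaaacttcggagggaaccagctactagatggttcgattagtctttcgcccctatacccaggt
D130009I18Rik, chr14:104715999-104716078 (+): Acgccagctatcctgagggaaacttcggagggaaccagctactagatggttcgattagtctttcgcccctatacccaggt
Kcnip1, chr11:33754938-33755017 (+): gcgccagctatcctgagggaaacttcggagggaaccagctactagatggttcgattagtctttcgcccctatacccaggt
Jarid2, chr13:44869834-44869913 (+): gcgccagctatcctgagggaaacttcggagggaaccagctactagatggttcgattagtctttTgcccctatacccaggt
Tmtc2, chr10:105238220-105238299 (-): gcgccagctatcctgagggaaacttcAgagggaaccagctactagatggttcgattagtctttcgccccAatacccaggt
Sspn, chr6:145932854-145932933 (+): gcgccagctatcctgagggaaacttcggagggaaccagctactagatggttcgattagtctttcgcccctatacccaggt
Gm19951, chr12:99645349-99645428 (-): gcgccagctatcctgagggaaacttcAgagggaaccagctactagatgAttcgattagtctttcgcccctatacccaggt
Spata5, chr3:37481578-37481657 (-): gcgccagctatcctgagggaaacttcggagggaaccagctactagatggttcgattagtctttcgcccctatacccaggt
Arhgap21, chr2:20899929-20900008 (-): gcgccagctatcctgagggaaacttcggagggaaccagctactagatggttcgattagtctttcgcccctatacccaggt

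Over these 80 bases the lines differed from the first by 0 to 2 bases. None of the 9 intervals matched a GENCODE M21 transcript of another gene, and each had 16 to 19 further copies elsewhere in the genome. No ribosomal RNA reference beyond GENCODE was searched, so the source of this sequence was left unnamed.

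A second kind of sequence matched an RNA that GENCODE annotates. The mitochondrial gene mt-Rnr2, which encodes the 16S ribosomal RNA of the mitochondrion, and the intronic interval in AC115970.1 are shown over 80 bases in which they did not differ.

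mt-Rnr2, chrM:1674-1753 (+): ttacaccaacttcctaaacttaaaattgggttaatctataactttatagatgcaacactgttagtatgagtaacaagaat
AC115970.1, chr10:96077653-96077732 (-): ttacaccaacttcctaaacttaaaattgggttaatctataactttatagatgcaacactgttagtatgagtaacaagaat

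A further kind ran across exon junctions of a spliced transcript of another gene. In the lines below, 30 bases of an exon are in lower case and 30 bases of the next exon in capitals, although the genome carries them side by side within an intron. All 3 stretches were identical to the transcript of the gene in brackets.

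Lcor (Morf4l1), chr19:41525397-41525456 (+): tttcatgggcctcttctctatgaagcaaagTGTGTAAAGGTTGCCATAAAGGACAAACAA
Adamts6 (Rpl32), chr13:104431046-104431105 (-): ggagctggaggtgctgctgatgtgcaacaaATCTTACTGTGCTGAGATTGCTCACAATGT
Wrap53 (Rps27), chr11:69573836-69573895 (+): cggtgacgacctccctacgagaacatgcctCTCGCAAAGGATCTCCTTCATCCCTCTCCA

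Most intronic intervals were seen in 1 library alone. A peak in only 1 library was found for 1160 of the 1584 (73.2%), against 37.8% of exonic intervals and 39.4% of all intervals. A peak in all 5 libraries was found for 116 (7.32%), against 19.8% of exonic and 19.2% of all intervals. Between these, 158 intronic intervals had a peak in 2 libraries, 83 in 3 and 67 in 4. The intronic intervals were thus spread over fewer libraries each than the exonic ones.

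The single-library intervals came mainly from 2 libraries. miR-222-IP 2 alone held 702 of them, and control-IP 2 alone held 363, which together made 91.8% of the single-library intervals. Control-IP 1 had 67 to itself, miR-222-IP 1 had 18 and control-IP 4 had 10. Of the intronic intervals called in control-IP 2, 62.8% were found in no other library, against 12% of its exonic intervals. In miR-222-IP 2 the shares were 63.7% and 33.5%, and in control-IP 1 they were 21.6% and 0.687%. miR-222-IP 2 had the longest list, of 37762 peaks, and the part of list length in these counts was not tested.

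**Figure D1:**
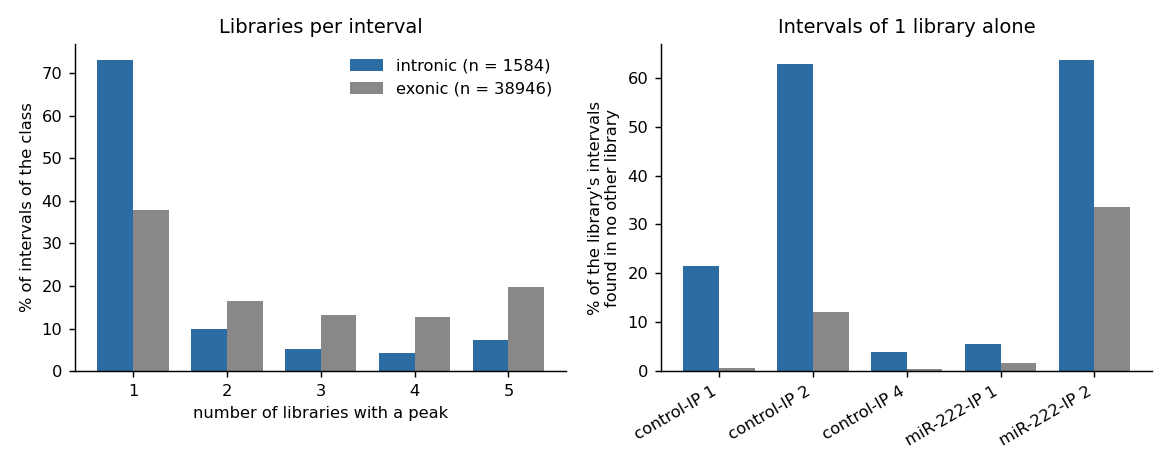
Left, percentage of intronic (blue, n = 1584) and exonic (grey, n = 38946) intervals by the number of libraries with a peak; right, percentage of each library's intervals of either class that were found in no other library. Intronic intervals were called in 1 library alone in 73.2% of cases against 37.8% for exonic ones, and the gap between the classes is widest in control-IP 2.

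The values of intronic peaks were low. Their median −log10 p per library was 27.6 to 32.9, against 34.6 to 40.9 for exonic intervals. The highest value of an interval stayed under 30 in 57.5% of intronic and 30.4% of exonic intervals. At the other end, 79 intronic intervals reached 100 or more in some library, and 68 of these 79 had a copy elsewhere in the genome. Intronic intervals had a median width of 425 bp (166 to 1912), against 376 bp for exonic ones. Those seen only in control-IP 2 were narrower, with a median of 324 bp, than those seen only in miR-222-IP 2, with 479 bp. The widest interval lay in Mia3, which encodes a cargo receptor for collagen export, spanned 1912 bp and overlapped an exon of a curated RefSeq transcript of Mia3. It had values of 34.3 in control-IP 2, 34.7 in control-IP 4, 34.3 in miR-222-IP 1 and 60.5 in miR-222-IP 2. Next in width were intervals in Gm6034 (1902 bp) and Cep85 (1523 bp).

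The more libraries shared an intronic interval, the more often its sequence was found elsewhere. A copy was counted where at least 100 bp aligned at 90% identity or more to another place in the genome. By that measure 311 of the 1584 intronic intervals (19.6%, 17.8 to 21.7) had a copy, against 16.4% of exonic intervals. The share was 9.57% for a peak in 1 library, 25.9% in 2, 33.7% in 3, 53.7% in 4 and 81.9% (73.9 to 87.8) in all 5. Exonic intervals went from 11.4% in 1 library to 29.2% in all 5. The copy lay over an annotated exon for 270 intronic intervals (17.0%). These intervals cover counting error only, and intervals of a family are not independent of each other. Bases masked as repeats could not start an alignment, so an interval masked throughout counts as having no copy.

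A match to an annotated transcript of another gene, by the same limits, was found for 230 intronic intervals (14.5%, 12.9 to 16.3). Its share rose from 7.59% in 1 library to 52.6% in all 5, against 9.21% and 22.9% of exonic intervals. The matches had a median length of 311 bp and a median identity of 98.6%, and 159 of them spanned at least 90% of the interval. They pointed to 164 genes, most of them protein-coding (175 of the 230 matches), with 12 matches to ribosomal protein genes and 2 to mitochondrial genes. A match to the best-matching gene crossed at least 1 exon junction in 51 intervals, with up to 8 junctions. Junctions were counted, here and below, on whichever aligned transcript of that gene gave the most. The match ran on the host's strand in 109 intervals and on the opposite strand in 109, and 61 overlapped a pseudogene annotated by RefSeq.

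**Figure D2:**
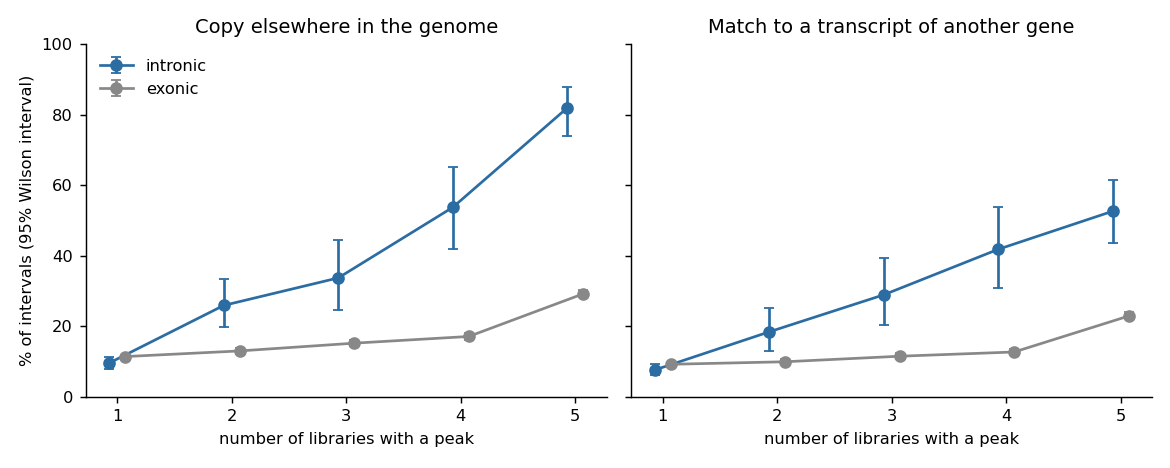
Percentage of intronic (blue) and exonic (grey) intervals with a copy elsewhere in the genome (left) and with a match to a transcript of another gene (right), by the number of libraries with a peak; bars are 95% Wilson intervals. Among intronic intervals the share with a copy goes from 9.57% in 1 library to 81.9% in all 5, and that of exonic intervals from 11.4% to 29.2%.

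The 12 strongest intronic intervals with a peak in all 5 libraries all had a copy elsewhere. The highest lay in Gphn, which encodes the synaptic scaffold gephyrin, at chr12:78350783-78351247. It had values of 336, 350 and 332 in control-IPs 1, 2 and 4 and of 338 and 329 in miR-222-IPs 1 and 2, so that the 2 conditions overlapped. Over 244 of its 465 bp it was 97.5% identical to a transcript of Lars2, the mitochondrial leucyl-tRNA synthetase, and it had 9 copies elsewhere. An interval in Fgfr2, a receptor for fibroblast growth factors, matched Lars2 as well, over 104 of its 414 bp at 96.2%. Its values were 230, 240 and 235 in the control-IPs and 235 and 237 in the miR-222-IPs. The match thus covered only part of each interval, and whether Lars2 RNA was the source of these peaks was not tested. With intervals in Wdr92 and Zfp185 these formed a family of 4 with Lars2 matches, 2 of which had a peak in all 5 libraries.

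The interval in AC115970.1, a unitary pseudogene, matched mt-Rnr2 over 373 bp at 97.6% identity. It had values of 318, 262 and 314 in the control-IPs and 318 and 318 in the miR-222-IPs. Control-IP 2 was the lowest, and the other 4 libraries lay between 314 and 318. An interval in Tbc1d9, which encodes a protein of the Rab GTPase-activating family, was 100% identical over 222 bp to Psap, the precursor of the lysosomal saposins, with 202, 279 and 264 in the control-IPs and 267 and 231 in the miR-222-IPs. One in Cdk8, the kinase of the Mediator complex, had 3 copies but no transcript match, with 246, 263 and 221 in the control-IPs and 236 and 205 in the miR-222-IPs.

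The family of 9 printed above followed. Its interval in Cmss1 and Filip1l, genes on opposite strands of one locus, had 311, 314 and 311 in the control-IPs and 310 and 303 in the miR-222-IPs. The interval in the lincRNA D130009I18Rik had 281, 282 and 285 in the control-IPs and 285 and 290 in the miR-222-IPs. In Kcnip1, whose product binds potassium channels, the values were 216, 237 and 211 in the control-IPs and 218 and 221 in the miR-222-IPs. In Cmss1 and Filip1l both miR-222-IPs were just below the control-IPs, in D130009I18Rik they were level with the highest control-IP or above it, and in Kcnip1 they lay inside the control range. The interval in Jarid2, a cofactor of Polycomb repressive complex 2, ranged from 196 to 215, and that in Tmtc2, an O-mannosyltransferase of the endoplasmic reticulum, from 140 in control-IP 2 to 218 in miR-222-IP 2. Over all 9 intervals and 5 libraries the values ran from 124 to 314.

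Intervals that matched spliced transcripts across junctions came next. The interval in Lcor, a nuclear receptor corepressor, was 99.8% identical to Morf4l1, a chromatin-binding protein, over 596 bp and 8 exon junctions. It had 174, 168 and 222 in the control-IPs and 227 and 253 in the miR-222-IPs, and RefSeq annotates a further gene there, Morf4l1b. The interval in Adamts6, a secreted metalloprotease, matched the ribosomal protein gene Rpl32 over 463 bp and 3 junctions at 95.5%, with 195, 180 and 190 in the control-IPs and 202 and 225 in the miR-222-IPs. In both intervals the raw values were highest in the miR-222-IPs and did not overlap the control-IPs, but the scaled log2 ratios described below were negative, at −0.19 for Lcor and −0.31 for Adamts6. The interval in Wrap53, which encodes a telomerase and Cajal body protein, matched Rps27 over 212 bp and 2 junctions at 98.1%, with 163, 183 and 168 in the control-IPs and 175 in each miR-222-IP, inside the control range. Of the 116 all-library intervals, 61 matched a transcript and 17 of these matches crossed a junction.

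In all, 122 intronic intervals belonged to 25 families whose members aligned to one another, and these held 51 of the 116 all-library intervals. The largest family had 30 members, of which 9 had a peak in all 5 libraries, and 21 of the 30 matched a transcript, most often of the predicted gene Gm42427. A family of 10 with no transcript match held 2 intervals in Il31ra, a cytokine receptor gene, and single ones in Camk1d, Tmem56, Dnah7b, Dcaf10 and others, and 9 of its 10 had a peak in all 5 libraries. A family of 4 without a transcript match lay in the lincRNA Gm26561 and in Cntnap5b, Col6a6 and Cd44, all with a peak in all 5 libraries. Its interval in Gm26561 had 283, 245 and 278 in the control-IPs and 281 and 290 in the miR-222-IPs.

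Intervals with a copy also differed from the others in their host genes. A host gene had an exonic interval in the same library for 21.4% to 51.3% of intronic intervals with a copy, and for 66.1% to 93.7% of those without one. The 95% intervals of the 2 sets did not overlap in any of the 5 libraries. The gene whose transcript matched, by contrast, had an exonic interval in the same library in 76.5% to 90.5% of cases. Intervals with a copy thus lay mostly in genes with no exonic peak in 4 of the 5 libraries, and in miR-222-IP 2 the host had an exonic interval for 140 of 273.

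A set of 20 intronic intervals had a peak in all 5 libraries with neither a copy nor a transcript match. For the 3 strongest of these in which masked repeats made up less than 50% of the bases, the middle 100 bases on the host's strand are shown.

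Adgrg1, chr8:94992874-94992973 (+): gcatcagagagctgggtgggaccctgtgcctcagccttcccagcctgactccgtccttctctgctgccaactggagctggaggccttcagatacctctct
Prkcb, chr7:122630645-122630744 (+): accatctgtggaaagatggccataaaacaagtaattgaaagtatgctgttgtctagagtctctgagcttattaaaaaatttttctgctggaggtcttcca
Sirpa, chr2:129596858-129596957 (+): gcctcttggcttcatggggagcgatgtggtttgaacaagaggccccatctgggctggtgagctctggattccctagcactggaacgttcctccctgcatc

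Adgrg1 encodes an adhesion G protein-coupled receptor. Its interval, 500 bp wide and 1100 bp from the nearest exon, had 134, 243 and 184 in the control-IPs and 184 and 230 in the miR-222-IPs, and it overlapped an exon that RefSeq predicts for Adgrg1. In Prkcb, the gene of protein kinase C beta, the interval lay in the last of 19 exon gaps and overlapped an exon of a curated RefSeq transcript of Prkcb. Its values were 103, 129 and 80.1 in the control-IPs and 98.2 and 79.9 in the miR-222-IPs. In both genes the conditions overlapped, and control-IP 2 was the highest library.

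The interval in Sirpa, a receptor of myeloid cells that binds CD47, had 70.2, 42.3 and 49.0 in the control-IPs and 53.0 and 119 in the miR-222-IPs. One in Fli1, an ETS transcription factor of blood and endothelial cells, had 44.6, 27.8 and 63.1 in the control-IPs and 41.3 and 122 in the miR-222-IPs. miR-222-IP 2 was the highest library in both, while miR-222-IP 1 lay inside the control range. The exonic macrophage peaks given above were present in the same libraries, and their part in these intervals was not tested. Malrd1, Plcd3 and Slc15a2 were among the 20 although repeats masked 95.5% or more of their intervals, which left the copy search little sequence to start from, and the Malrd1 and Plcd3 intervals did align with members of the family of 30.

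**Figure D3:**
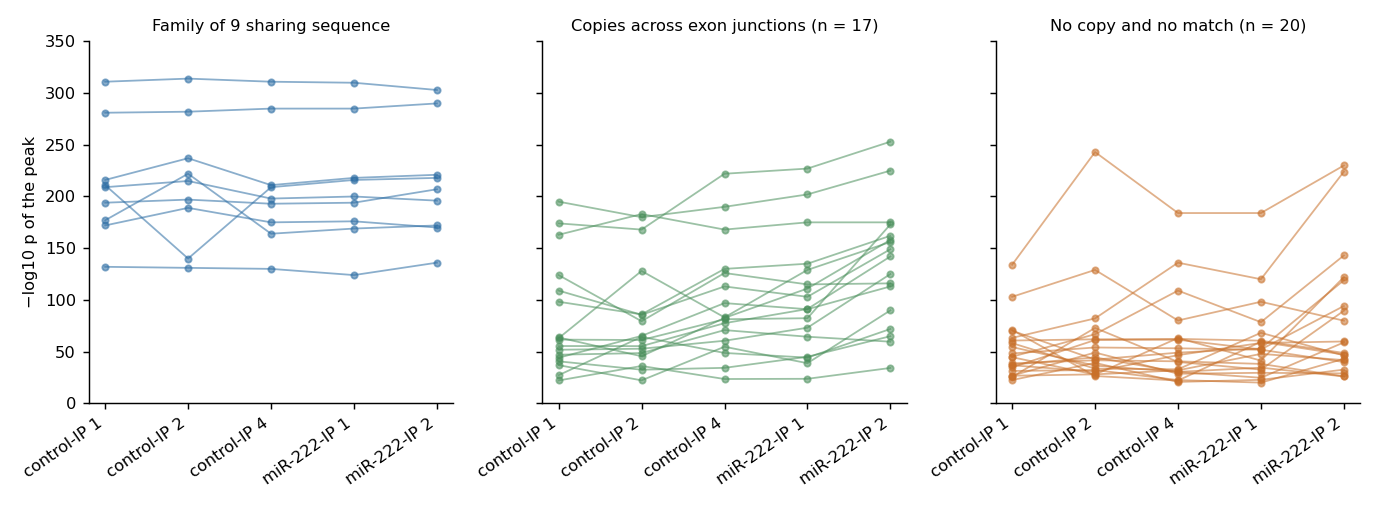
−log10 p of the peak in each of the 5 libraries (lines join the values of one interval and carry no order of time) for the family of 9, for 17 intervals that matched a spliced transcript across exon junctions and for 20 intervals with neither a copy nor a match, all with a peak in every library. The family of 9 lies between 124 and 314, with Tmtc2 lowest in control-IP 2 at 140, while most intervals of the other panels are lower and several are highest in miR-222-IP 2.

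RefSeq annotated exons under some of the intervals that GENCODE leaves without one. A RefSeq exon was overlapped by 207 intronic intervals (13.1%), against 9.8% of flanking windows. These windows had the same length, lay directly beside an intronic interval and overlapped neither an exon nor a peak, and 2846 of them were found for 1552 of the intervals. Of the 207, 64 overlapped a RefSeq pseudogene, 64 another RefSeq gene, 62 a predicted transcript of the host gene and 17 a curated one. The share was 9.4% for intervals in 1 library and 29.3% for those in all 5. No intronic interval overlapped a RefSeq miRNA hairpin.

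The intronic intervals lay at a median of 3008 bp from the nearest exon, in exon gaps with a median length of 21222 bp. An exon gap is the stretch between neighbouring exons once all transcripts of a gene are joined. Within 1000 bp of an exon lay 419 (26.5%, 24.3 to 28.7), or 21.2% of those seen only in miR-222-IP 2 and 47.8% of the 67 seen only in control-IP 1. The first gap held 26.2% of the intervals and took up on average 22.4% of the gap length of their hosts. The nearer exon was the upstream one in 62.4%. On plus-strand hosts lay 778 and on minus-strand hosts 744, and 62 had hosts on both strands. Protein-coding genes alone hosted 1423 (89.8%), and 62 lay in lincRNA genes.

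Most host genes held 1 interval (923 of 1187), whereas 30 held at least 5. Elmo1, a regulator of Rac in engulfment and migration, and Plxdc2, a membrane protein, led with 13 each. Of the 13 in Elmo1, 12 had a peak in miR-222-IP 2 and 11 in that library alone, with 1 in control-IP 1 and 1 in miR-222-IP 1. Exonic intervals of Elmo1 numbered 12 to 20 in every library. The Plxdc2 intervals were alike, with 11 in miR-222-IP 2, all of them in that library alone, and 12 to 13 exonic intervals in each library. In both genes the exonic intervals were present in all libraries while the intronic ones were mostly in one.

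Slc8a1, the sodium-calcium exchanger, held 12 intronic intervals, of which 10 had a peak in miR-222-IP 2. Nav2, a cytoskeletal neuron navigator, held 10, of which 7 were seen in miR-222-IP 2 and 3 in control-IP 2, and none in the other libraries. Pip4k2a, a phosphoinositide kinase, held 9, with 8 in miR-222-IP 2 and 1 in each other library. Fli1 held 7, all of which had a peak in miR-222-IP 2, and 6 in that library alone. Epb41l2, a membrane-cytoskeleton linker, also held 7, as did Gm20388, whose gene body of 4435 kb spans other genes. These 8 genes were named by number of intervals, with ties in name order, and 5 genes held 7. Gene bodies of 121 to 701 kb in the other 7 genes give many places for a peak, and gene length was not adjusted for.

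**Figure D4:**
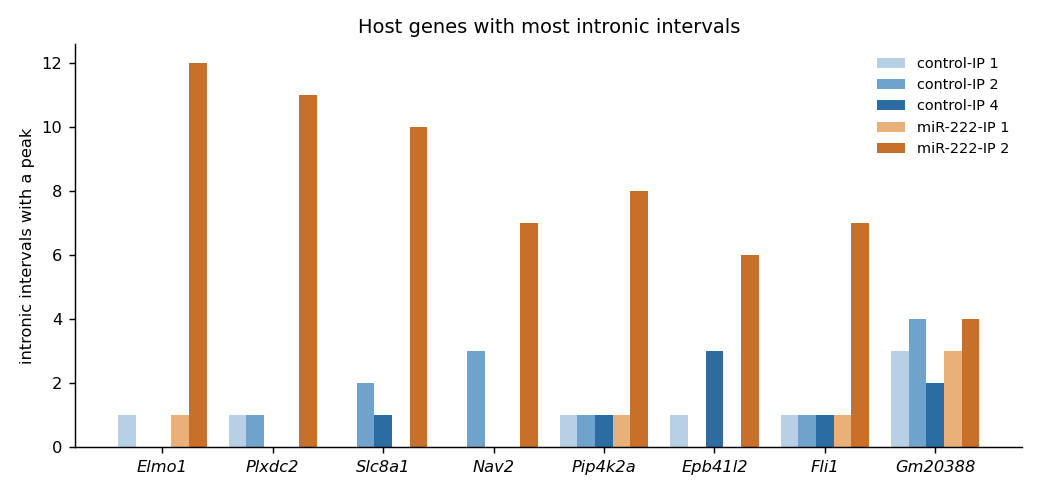
Number of intronic intervals with a peak in each library (bars from 0) for the 8 host genes with most of them. In 7 of the 8 genes miR-222-IP 2 holds 6 to 12 intervals and no other library more than 3, and in Gm20388 the libraries hold 2 to 4.

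The conditions were compared by the intronic share of each library's intervals, which does not show where Ago2 bound. The intronic share of a library's intervals was 2.98% (310 of 10392) in control-IP 1, 2.99% (578 of 19344) in control-IP 2 and 1.48% (261 of 17617) in control-IP 4. It was 1.54% (322 of 20865) in miR-222-IP 1 and 2.93% (1102 of 37613) in miR-222-IP 2. In experiment 1 the miR-222-IP was below both control-IPs, and in experiment 2 it was above the control-IP. The mean difference over the experiments was 0.00302 percentage points, with p = 1.0 in a two-sided exact permutation test within experiments, whose 6 arrangements allow no p under 1 in 6. Leaving out intervals with a copy gave 0.153 percentage points and the same p, 1.0, by that exact permutation test.

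A peak in both miR-222-IPs and in none of control-IPs 1, 2 and 4 was found for 45 intronic intervals (2.84%), against 6.37% of all intervals. The reverse, a peak in all 3 control-IPs and in neither miR-222-IP, was found for no intronic interval, against 0.00967% of all intervals (4 of 41363). The share of 2.84% was below the background of 6.37%. In each experiment the miR-222-IP had the longest list, and the part of list length in both counts was not tested. By the lower of their miR-222-IP values, the leading interval of the 45 lay in Pkd1l1, a polycystin of left-right patterning, at 37.3 and 42.5 in miR-222-IPs 1 and 2, but repeats masked all of it. In Chd1, a chromatin remodeller, the interval had 33.9 and 80.9 and lay 275 bp from an exon. In Runx1, a transcription factor of blood formation, the values were 30.1 and 36.7, and in Tbxas1, thromboxane synthase, they were 29.6 and 41.7. These 4 intervals had 29.6 to 37.3 in miR-222-IP 1, and a missing control peak says only that none passed the limit of 20.

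Of the other 4 among the 8 highest, 2 had a copy. An interval in Prkcb, apart from the one shown above, matched Acp1 over 383 bp at 96.6% and overlapped the RefSeq pseudogene Gm14388, with 30.5 and 36.9 in the miR-222-IPs. An interval in Ngef and Neu2 matched Hnrnpa3 over 333 bp, with 39.6 and 30.1. Zfp120 (30.4 and 52.6) and Atp2b1, a plasma membrane calcium pump (29.4 and 38.9), completed the 8, and neither had a copy or a match. Of the 45, 16 had a copy elsewhere (35.6%, 23.2 to 50.2).

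For the 116 intronic intervals with a peak in all 5 libraries, values were scaled by the median of ratios over all 7935 such intervals, and the log2 ratio of miR-222-IP to the mean of the control-IPs was averaged over the experiments. The intronic median was −0.24 (quartiles −0.48 and 0.20), against 0.00 for exonic and for all intervals, with −0.25 in experiment 1 and −0.20 in experiment 2. Without control-IP 1 it was −0.06, over the 137 intronic intervals with a peak in every remaining library, scaled anew. Without scaling the intronic median was 0.23 while that of all intervals was 0.46, so the sign of the ratio turned and the difference from all intervals was −0.23. Scaled to the sum of values, the medians were −0.64 and −0.43, a difference of −0.21. The miR-222-IP was above every control-IP in both experiments for 18 intronic intervals (15.5%), against 17.4% of all intervals. It was below every control-IP for 38 (32.8%), against 18.4% of all. Without scaling these shares were 38.8% above and 11.2% below, against 50.1% and 2.75% of all intervals, and scaled to the sum 42.2% were below, against 36.8% of all. The lower ratios were found with a copy (median −0.24, n = 95) and without one (−0.14, n = 21). The scale factors went from 0.706 in control-IP 1 to 1.49 in miR-222-IP 2, so an interval with level raw values has a negative ratio by construction.

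Among the 18 above every control-IP, the largest log2 ratio was 1.32, in Mvp, which encodes the major vault protein. Its raw values were 21.2, 27.9 and 27.4 in the control-IPs and 146 and 54.5 in the miR-222-IPs, which did not overlap the controls, and the interval matched Mettl23 over 256 bp at 98.8%. Hecw2, a ubiquitin ligase, followed at 1.1, with 20.7, 24.6 and 25 in the control-IPs and 81.8 and 61.4 in the miR-222-IPs, and matched the translation factor Eif5 over 1114 bp at 97.5%. Wdpcp, a planar cell polarity effector, came next at 0.83, with 60.3, 30.4 and 27.1 in the control-IPs and 94.8 and 83.7 in the miR-222-IPs, and matched the glycolytic enzyme Pgam1 over 258 bp at 99.6%. All 3 named intervals were thus copies of protein-coding transcripts, and no single interval was tested, since the permutations within experiments allow no p under 1 in 6.

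The lowest log2 ratio among the 38 was −1.05, in Afm, which encodes the plasma protein afamin, with raw values of 44.1, 32.7 and 37.1 in the control-IPs and 26.9 and 24.7 in the miR-222-IPs. Next was one of the Il31ra intervals of the family of 10, at −1.02, with 34.0, 68.2 and 28.0 in the control-IPs and 21.6 and 29.9 in the miR-222-IPs, where the raw conditions overlapped. Hdac9, a class II histone deacetylase, came next at −0.83, with 38.7, 41.6 and 40.6 in the control-IPs and 38.1 and 26 in the miR-222-IPs. Masked repeats made up 50% to 87% of these 3 intervals.

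Sequence features were counted on the host's strand, for the 1522 intervals whose hosts lie on 1 strand. The miR-222 sequence is printed from RefSeq (GRCm38.p6) with its seed in capitals, and below it 27 bases around the match to that seed, ATGTAGC, in the 8 intervals with the highest value in a miR-222-IP. Capitals in those lines mark the match.

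mmu-miR-222-3p: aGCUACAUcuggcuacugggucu
Cpeb1, chr7:81420969-81420995 (-): ttatagagacATGTAGCaataatgggg
Myo1d, chr11:80678461-80678487 (-): gtgtcaggtcATGTAGCctaatactaa
Elmo1, chr13:20375574-20375600 (+): ttggcattccATGTAGCtcacacagcg
Atp8a1, chr5:67777431-67777457 (-): gctacatattATGTAGCtaagtgataa
Camk1d, chr2:5648979-5649005 (-): gctgaagaaaATGTAGCaaccgctcct
Hnrnpf, chr6:117908777-117908803 (+): acaaatcattATGTAGCcacagaggat
Gnaq, chr19:16231639-16231665 (+): tggacccagcATGTAGCatagaggaaa
Usp7, chr16:8737171-8737197 (-): gttgtgtatgATGTAGCatgctctagg

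The match was found in 40 of 1522 intronic intervals (2.63%, 1.94 to 3.56), against 3.65% (3.01 to 4.41) of flanking windows and 2.51% of exonic intervals. The Wilson intervals of the intronic and flanking shares overlapped. Of the intronic intervals seen in both miR-222-IPs and no control-IP, 2 of 44 held it (4.55%, 1.26 to 15.1). The Atp2b1 interval named above, at 29.4 and 38.9 in the miR-222-IPs, was 1 of these 2. Of those seen in all 5 libraries, 1 of 112 held it (0.893%, 0.158 to 4.88). The 6-mer match to bases 2 to 7 was in 11.7%, 13.3% and 10.9% of intronic, flanking and exonic sequence. A match is a run of letters and does not show that Ago2 bound there.

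The single all-library interval with the match lay in Cpeb1, a regulator of cytoplasmic polyadenylation. It had 54.4, 85.4 and 119 in the control-IPs and 128 and 238 in the miR-222-IPs, with a log2 ratio of 0.48, and both miR-222-IPs were above every raw control value. It matched Zfp36l2, an mRNA decay factor, over 823 bp at 99.8%, and the seed match lay inside that stretch on the strand of the Zfp36l2 transcript. The interval in Myo1d, an unconventional myosin, had 21.1 and 23.0 in control-IPs 1 and 4, no peak in control-IP 2, and 48.7 and 65.0 in the miR-222-IPs. That in Hnrnpf, an hnRNP splicing factor, had 26.6 in control-IP 1 and 34.7 and 48.8 in the miR-222-IPs, and it overlapped a further RefSeq gene, 4933440N22Rik. The other 5, in Elmo1, the flippase gene Atp8a1, the kinase gene Camk1d, the G protein gene Gnaq and the deubiquitinase gene Usp7, had a peak only in miR-222-IP 2, at 40.7 to 53.4.

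Seeds of the muscle miRNAs miR-1 and miR-206 matched 3.75% of intronic intervals, 2.88% of flanking windows and 3.39% of exonic intervals. For let-7 the shares were 4.07%, 2.92% and 3.59%. Runs of at least 8 A on the host's strand, at which an oligo(dT) primer can anneal, were in 8.15% of intronic intervals, 10.5% of flanking windows and 6.16% of exonic intervals. Runs of at least 8 T were in 11.8%, 15.2% and 9.95%. The poly(A) signal AATAAA was in 19.3%, 23.6% and 22.8%, and its reverse complement TTTATT in 31.1%, 32.9% and 25.9%. Runs of T and the poly(A) signal were thus less frequent under the peaks than directly beside them, with Wilson intervals that did not overlap, whereas those for runs of 8 A did overlap. Runs of at least 6 A were in 20.6% (18.7 to 22.7) of intronic intervals and 25% (23.5 to 26.7) of flanking windows, which did not overlap. Wilson intervals ignore that each window is paired with the interval beside it. The difference in masked repeats between them, given next, was not adjusted for.

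Masked repeats covered at least 50% of 153 intronic intervals (9.66%, 8.3 to 11.2), 18.4% of flanking windows and 0.876% of exonic intervals. Their median GC content was 44.3%, against 43.3% of flanking windows and 46.8% of exonic intervals. Repeats thus lay under intronic peaks less often than beside them and more often than under exonic peaks.

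**Figure D5:**
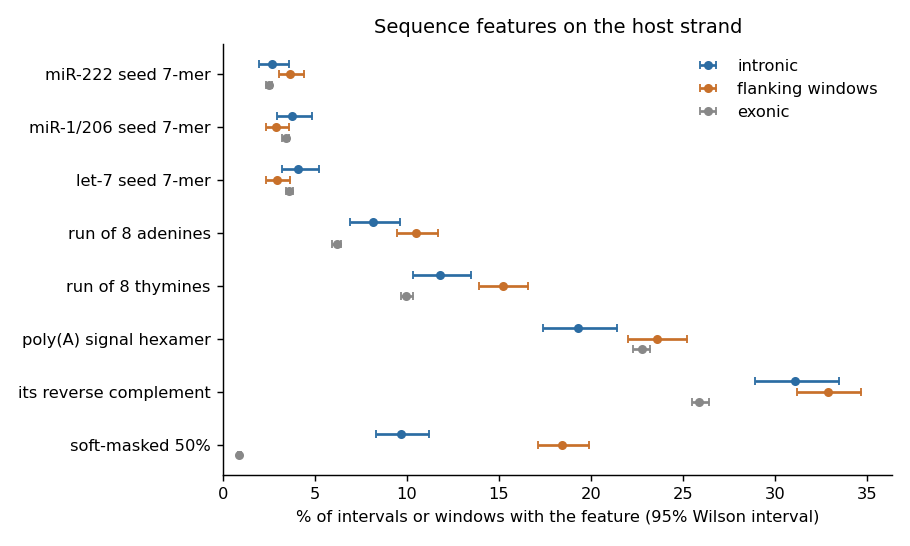
Percentage of intronic intervals (blue), of flanking intronic windows of the same length (orange) and of exonic intervals (grey) that hold each sequence feature on the host's strand, or, in the last row, at least 50% masked bases; bars are 95% Wilson intervals. The miR-222 seed match is at 2.63%, 3.65% and 2.51%, and masked sequence is at 9.66%, 18.4% and 0.876%.

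Gene lists of muscle and of RNA processing were then examined as hosts, with no test. As background, 923 of the 13241 genes with an exonic interval (6.97%) hosted an intronic one. None of 35 sarcomere genes did, and 32 of the 35 had an exonic interval. Of 16 calcium-handling genes, 13 of them with an exonic interval, 2 hosted 4 intervals, all with a copy elsewhere. Ryr3, a ryanodine receptor of the sarcoplasmic reticulum, held an interval that matched Yipf5 over 265 bp at 99.6%, with 38.3, 36.3 and 35.4 in the control-IPs and 59.8 and 115 in the miR-222-IPs. A further Ryr3 interval matched the chaperone gene Hsp90ab1, with 24.7, 54.4 and 32.1 in the control-IPs and 56.1 and 67.3 in the miR-222-IPs. In both the miR-222-IPs were above the raw control values.

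Of 26 genes of the dystrophin complex and of membrane linkers, 22 of them with an exonic interval, 4 hosted 7 intervals, 4 of them seen only in miR-222-IP 2. The interval in Dmd, the dystrophin gene, had 39.9 in miR-222-IP 2 alone and matched the splicing regulator Qk over 267 bp at 98.1%. That in Ank3, ankyrin G, had 36.1 in control-IP 2 alone and matched Mki67. The one in Sntb1, which encodes beta-1 syntrophin, had 27.8 in control-IP 2 alone with no copy. None of the 7 intervals had a peak in all 5 libraries.

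Of 13 muscle splicing regulators, 12 of them with an exonic interval, 5 hosted 17 intervals without any copy, 8 of them only in miR-222-IP 2. Among protein-coding genes with an exonic interval, 8.63% hosted an intronic one. Gene length was not adjusted for, and its part in the count of 5 was not tested. Rbfox2 held the strongest, at 98.9 in miR-222-IP 2 and with no peak elsewhere, 8766 bp from an exon. In Mbnl1, a splicing regulator of muscle maturation, the strongest interval lay 17 bp from an exon, with 32.5 and 24.6 in control-IPs 1 and 4 and 53.6 in miR-222-IP 2. That of Qk had 22.3 in control-IP 4 and 42.4 in miR-222-IP 2.

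Of 38 SR protein, hnRNP and kinase genes with known retained introns, all with an exonic interval, 2 hosted an intronic one, Tra2b and Hnrnpd, against the background of 6.97%. A retained intron that GENCODE annotates as an exon counted as exonic here, so this count cannot show how often retained introns had peaks. With exons of retained-intron transcripts not counted, all genes together gave 1642 intronic intervals, and this list was not counted anew. The Tra2b interval spanned 1034 bp, with 20.1 and 47.5 in the miR-222-IPs and no control peak, and that of Hnrnpd had 35.5 in miR-222-IP 2 alone. Among 17 long non-coding RNA genes, Dleu2 had 21.5 in control-IP 2 and 40.8 in miR-222-IP 2. The imprinted antisense gene Airn had 23.6 and 25.4 in control-IPs 1 and 2, over a copy of Rpl41 with 3 junctions and the RefSeq pseudogene Gm17592. Values in these lists thus rested on 1 or 2 libraries for most intervals, and no condition difference was tested on them.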

How the data were processed

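RNA precipitated with Ago2 was amplified with a kit that does not mark strand and sequenced as paired ends. The authors aligned reads to mm10 with SOAPSplice, converted them with bedtools 2.17.0 and called peaks with MACS2 in each library on its own. The deposited −log10 p of each peak was used as given, after the authors' filter at 20, and the treatment of reads with several alignments is not given in the sources used here. Peak starts and ends of 5 of the 6 libraries were merged and set against GENCODE M21. An interval took the highest −log10 p of its peaks in a library. Sequences were searched with blastn 2.17.0 (e-value 1e-10, soft-masked) against the GENCODE M21 transcripts and the GRCm38.p6 genome. Depth is unknown, so no interval that needs it is given, and Wilson intervals of shares cover counting error only.

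The only test was an exact permutation test of library shares within experiments (scipy 1.17.1). Merging, overlap, ratios and the permutation test were checked on made-up data with known answers, and 12 of 12 checks passed. The ratio checks used 2000 simulated intervals. The searches for copies, transcript matches, junctions and seeds were not among these checks. Names follow fixed rules: the 12 highest in all 5 libraries, the 8 highest found only in both miR-222-IPs, the 8 richest host genes, the 3 largest and 3 smallest ratios, the 8 highest with a miR-222 seed match, up to 3 per host gene list and the 3 widest. Adamts6, Wrap53, Adgrg1, Sirpa, Fli1, Slc15a2, the Prkcb interval with no copy and the family members outside these rules were chosen after their values were seen. The members and lists were chosen with earlier results of these data known. Alternatives covered thresholds, merging, exon definition, scaling, matching limits and each library left out. Labels give 10 nM duplex, and the study's methods give another concentration. A further gene was left out of the macrophage list and is not reported here.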

Additional observations from a re-analysis of the deposited data

How the results depend on the processing

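Of 95 alternatives, 42 were classed as leaving a result the same, 47 as moving it and 6 as turning a sign, and 11 of the 95 were chosen after seeing the data. A share was the same inside its Wilson interval, a count within a fixed fold range, and a median ratio within the standard deviation between experiments. For the difference in share, the same meant only that the sign was kept, whatever its size. Keeping peaks of at least 50 left 248 intronic intervals (1.6% of all), with 18.5% of them in all 5 libraries, 52.8% in 1 and 5.65% only in both miR-222-IPs, a median log2 ratio of −0.18 and a difference in share of −0.211 percentage points. Among these, 12.1% were masked, 40.3% matched a transcript, 11.7% held a run of A and 34.3% lay within 1000 bp of an exon. Requiring 2 libraries left 424 (1.69%), with 13.7%, 33.5%, 11.7% and 33.3% for the same features. Including control-IP 3 gave 989 intervals (3.6%), with 8.9% in all 5 libraries. Counting only exons on the host's strand gave 3460 (8.36%). Leaving out intervals with a copy gave 3.08% of all intervals, 1.65% in all 5 libraries, 82.4% in 1, a median ratio of −0.14 and 24.0% near an exon. Protein-coding hosts alone matched a transcript in 11.7%. The looser definitions gave 11.7% for the 6-mer and 20.6% for runs of 6 A, and the stricter one 2.4% for masking of 90%. The median ratio was 0.23 without scaling and −0.64 when scaled to the sum. The difference in share was −0.248 with no block for experiment and −0.474 with equal numbers of peaks.

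Leaving out 1 library at a time gave 897 (without miR-222-IP 2) to 1574 intronic intervals, or 3.13% to 3.83%. The share in all remaining libraries was 7.45% to 13.5%, the share in 1 was 67.8% to 76.5%, and the share in every remaining miR-222-IP but no remaining control-IP was 4.34% to 47.7%, the highest without miR-222-IP 1. The share in all libraries was 12.4% without control-IP 2. The median ratio was −0.27 to −0.06, the latter without control-IP 1, each over the intervals with a peak in every remaining library. The difference in share was −1.44 to 1.45 percentage points. Leaving out control-IP 4, miR-222-IP 1 or miR-222-IP 2 left only 1 experiment with both conditions. The values of −1.44 without control-IP 4 and −1.43 without miR-222-IP 2 are thus those of experiment 1 alone. The value of 1.45 without miR-222-IP 1 is that of experiment 2 alone. The cause of the other shifts was not tested, apart from fewer libraries being counted. Replicate numbers follow accession order and pair no samples, so they were not used as a block, and the experiment served as the block of the main comparison. Depth is not given by peak lists, so a missing peak is not a missing signal.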
